A study of Mus musculus with 24 samples.

Results

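Hippocampal mRNA of 10 mouse pups that had received morphine under stress was compared with that of 5 untreated pups, on 15 of the 24 arrays of the series. All pups were male C57BL/6 mice by their labels, killed on postnatal day 9 (P9), and each array held the hippocampi of 1 animal. From P5, the 5 pups of the MS2 group were injected with morphine at 2 mg/kg and the 5 pups of the MS5 group at 5 mg/kg, each time just before a brief apnea, on days spent apart from the dam in a warmer. The 5 control pups (Con) stayed in the home cage, uninjected and with minimal handling. No group had the stress without morphine or the morphine without stress, so drug, injection, apnea and separation cannot be told apart here. Members were taken from the sample titles alone, and each dose was given equal weight, so every difference below is the mean of MS2 and MS5 minus Con on the log2 scale unless said otherwise. A difference of 1 on this scale is a doubling. The question is which genes moved the same way at both doses.

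Morphine acts on opioid receptors, which couple to inhibitory G proteins and dampen neuronal activity. Separation and low oxygen raise glucocorticoids and hypoxia-responsive transcripts in the young brain. In the second postnatal week the hippocampus is also being myelinated, and a phagocytic class of microglia gathers in the nearby white matter at this age and then disappears. The choroid plexus, the ciliated secretory tissue that makes cerebrospinal fluid, hangs in the ventricle beside the hippocampus and is easily kept or lost at dissection.

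Several arrays stood apart, and results that rest on them are given with and without them. The 18 genes of hippocampal principal neurons averaged 11.51 to 11.99 on 14 arrays and 9.88 on MS2 replicate 4, where the 30 genes of hypothalamus and thalamus were highest, at 10.26 against 8.34 to 9.54. MS5 replicate 9, labelled male, carried Xist, the RNA of the inactive X chromosome, at 11.34 against 5.89 to 6.08 elsewhere, where it was not well above background, and the Y-linked Ddx3y at 6.24 against 11.01 to 11.45. Choroid plexus genes were lowest on MS5 replicates 14 and 9. MS2 replicate 5 was dim, with a median spot signal of 58.2 against 121 to 154, and Con replicate 19 was the highest control in several microglial genes. Con replicate 19 differed in other lists too. It was the highest control in the mean of interneuron genes (11.87) and of opioid receptor and peptide genes (11.80), and the lowest in meningeal and fibroblast genes (10.40). The arrays lay on 2 slides that each held all groups, and 2048 probesets differed between the slides at an adjusted p under 0.05 in limma. Each of these arrays that stood apart lay on slide 2 (MS2 replicates 4 and 5, MS5 replicates 9 and 14 and Con replicate 19). Values within a slide below therefore also part these arrays from the rest.

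Probes behind several leading results are shown so that each level can be traced to the stretch of transcript it reads. Each is 60 bases long, the first 30 bases are given 5′ to 3′ as the scanner files list them, and positions are those of build mm9 in the same files. Whether a probe lies in an exon or a UTR was not looked up here. Itgax is read at chr7:135294052-135294111, Spp1 at chr5:104868502-104868561, Clec7a at chr6:129411739-129411798 (minus strand) and Mertk at chr2:128627867-128627926.
Itgax: tcccatctacttttgcaacgttggaattga
Spp1: aggtgatagcttggcttatggactgaggtc
Clec7a: ttaataccacccttatttccagtgtggact
Mertk: agcaccaggtgaaagctgtcaagtcaggtt
The potassium channel gene Kcnj13 has a pair of probes, at chr1:89282859-89282918 and chr1:89282991-89283050 on the minus strand, whose differences were close. The Trim35 probes, at chr14:66922843-66922902 and chr14:66930151-66930210, did not, and both are shown in this order.
Kcnj13 first probe: tgtatctcatgtttccttgttctcagtgct
Kcnj13 second probe: catatcaatggacaaagcattgacaatttc
Trim35 first probe: tgcaaacgacttggctggaaggccgcatcc
Trim35 second probe: cccattgggttgtctgaccttttattatga

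Few genes were shifted at both doses together, and most of those past the study's threshold were lower in the treated pups. At a fold change over 1.5 with an unadjusted p under 0.05, 3 probesets were higher (0.00539% of 55681) and 27 were lower (0.0485%). A RefSeq transcript was assigned to 28 of these 30, from 26 genes. At an unadjusted p under 0.05 alone, 1055 probesets were higher (1.89%) and 1247 lower (2.24%). These shares together lie below the share of 0.05 that this threshold gives by chance. After Benjamini-Hochberg adjustment in limma 0 probesets (0%) had an adjusted p under 0.05, and the smallest adjusted p was 0.988, so none of the genes named below passed the adjusted test. Where genes are called higher or lower at p under 0.05, this is the unadjusted p of limma. Every list count below is to be read against the share of all gene names, 1.71% higher and 2.46% lower. The p printed beside a gene is that of a two-sided exact permutation test over the 3003 ways to choose 5 of the 15 arrays, written as exact p, and is unadjusted as well. A count free of any model gave 23 probesets whose 10 treated arrays did not overlap the 5 Con arrays, 6 above them (0.0108%) and 17 below (0.0305%). With groups assigned at random, a probeset would lie wholly above the controls with a chance of 0.000333, and likewise below. Neither share is larger than this chance. For 16 of the 23, at least 1 group had the probe well above background throughout. Gpnmb alone met both criteria.

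Most of the lower probesets differed between the doses. Of the 27, 12 belonged to genes of the choroid plexus list and 26 were lower at MS5 than at MS2, 19 of them with p under 0.05 for MS5 minus MS2, where 3.97% of all probesets reached that p and the smallest adjusted p was 1. The exception was Spp1. Gpnmb, Itgax and Spp1 among the lower probesets, and Pdzd2 among the higher, had nearly equal differences at both doses. Gpnmb and Itgax were dim in the treated pups, where differences are compressed, so near equality of the doses says little for them. MS2 and MS5 share their controls, so the values of each dose are set side by side as a description.

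**Figure D1:**
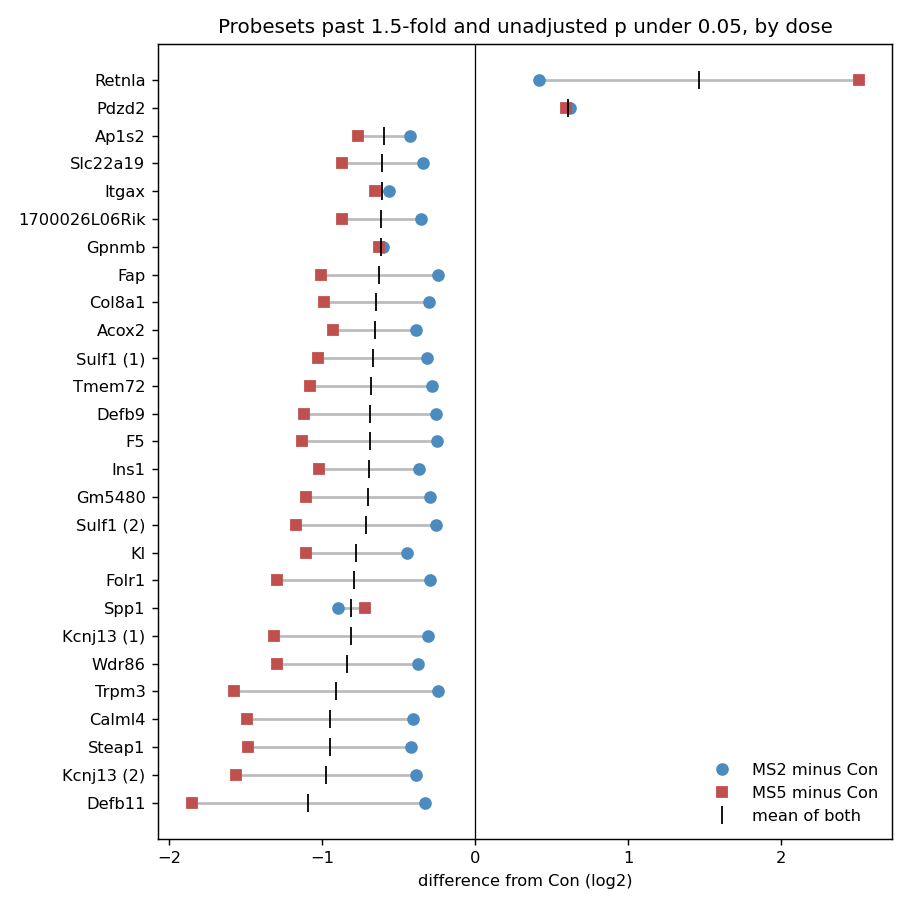
Differences from Con (log2, horizontal axis) of 27 probesets with a RefSeq transcript past 1.5-fold and unadjusted p under 0.05, for MS2 (circles), MS5 (squares) and their mean (ticks); a number in parentheses tells probesets of the same gene apart. Retnla and most lower genes lie far further from 0 at MS5, while Gpnmb, Itgax, Spp1 and Pdzd2 have both symbols close together.

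Several genes of phagocytic microglia were lower in both treated groups. Gpnmb, a transmembrane glycoprotein that phagocytes induce, had levels of 6.88, 7.19, 6.86, 7.12 and 8.24 in Con, 6.58, 6.62, 6.63, 6.63 and 6.82 in MS2, and 6.73, 6.58, 6.59, 6.66 and 6.57 in MS5. Every treated array lay below every control, with a gap from 6.82 to 6.86, and the MS2 and MS5 arrays covered the same narrow range. The difference was -0.62 ± 0.17 (SE) (exact p = 0.000333, the smallest that this test can give), and its limma p was under 0.05 in each of the 26 alternative analyses. It was -0.60 at MS2 and -0.63 at MS5. Gpnmb was named for its difference and its lack of overlap on these same arrays. Its exact p and the 26 alternatives therefore describe that choice and add no separate support.

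Itgax, the integrin CD11c that marks this microglial class, stood at 6.80, 7.14, 6.47, 7.22 and 8.00 in Con, at 6.65, 6.59, 6.30, 6.60 and 6.67 in MS2, and at 6.58, 6.41, 6.49, 6.56 and 6.31 in MS5. Only Con replicate 17 reached into the treated range. Its difference was -0.61 ± 0.17 (exact p = 0.003), with -0.57 at MS2 and -0.66 at MS5. The study had already listed Itgax as lower at both doses on the same arrays. Spp1, which encodes the secreted phosphoprotein osteopontin, stood at 7.88, 8.89, 7.66, 8.41 and 9.59 in Con, at 7.95, 7.55, 7.57, 7.10 and 7.76 in MS2, and at 7.50, 8.45, 7.61, 7.93 and 7.32 in MS5. The groups overlapped, and the difference was -0.81 ± 0.27 (exact p = 0.012). Itgax, Clec7a and Lgals3 were chosen after their values were seen.

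Clec7a, the beta-glucan receptor dectin-1, ranged from 7.22 to 8.60 in Con and from 7.04 to 7.42 over the 10 treated arrays. Only Con replicate 15 lay within the treated range, and the difference was -0.51 ± 0.16 (exact p = 0.00433). Lgals3, a galectin of activated phagocytes, ranged from 10.18 to 10.69 in Con and from 9.64 to 10.48 in the treated pups, with a difference of -0.39 ± 0.13 (exact p = 0.018). The doses were close in Clec7a, with -0.53 at MS2 and -0.49 at MS5.

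Con replicate 19 was the highest of all arrays in these 5 genes. Without it the differences were -0.37 for Gpnmb, -0.39 for Itgax, -0.54 for Spp1, -0.31 for Clec7a and -0.35 for Lgals3, each still with p under 0.05 in limma. Without MS2 replicate 4 and MS5 replicates 9 and 14 together they were -0.60, -0.54, -0.85, -0.51 and -0.25, again each with p under 0.05. The size of the differences varied by slide. Within slide 1 they were -0.27 for Gpnmb, -0.23 for Itgax, -0.25 for Spp1, -0.23 for Clec7a and -0.17 for Lgals3. Of these only Gpnmb had p under 0.05 in limma. Within slide 2, which held Con replicates 16 and 19, they were -1.11, -1.14, -1.68, -0.91 and -0.70, all with p under 0.05. In the treated pups Gpnmb (6.57 to 6.82) and Itgax (6.30 to 6.67) were dim, and the size of their differences depends on the processing. With an offset of 0 the differences over all arrays were -1.0 for Gpnmb and -1.05 for Itgax, and with 75th-percentile scaling -1.10 and -1.18.

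**Figure D2:**
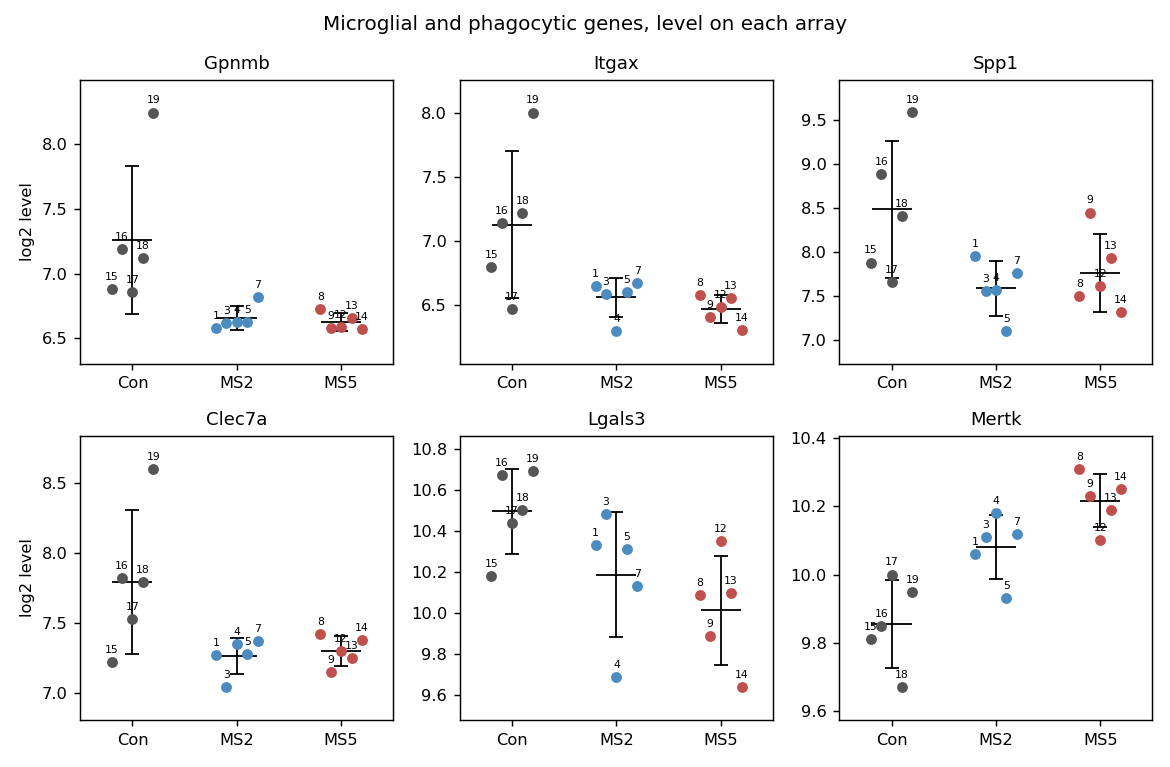
Log2 levels of 6 genes on each of the 15 arrays (points, with replicate numbers) by group, with the mean and SD (bars). Gpnmb does not overlap between Con and the treated groups, Con replicate 19 tops the first 5 panels, and Mertk is the gene that is higher in the treated pups.

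The shift did not run through microglial genes in general. Of the 18 genes of microglia at large, 0 were higher and 0 lower at p under 0.05, against 1.71% higher and 2.46% lower of 36163 gene names, and their median difference was -0.01 with a range from -0.13 to 0.15. The homeostatic receptors Cx3cr1 and P2ry12 differed by 0.03 and -0.05. Mean levels of this list were 11.60 to 11.99 in Con, 11.54 to 11.85 in MS2 and 11.59 to 11.89 in MS5. A list of 20 genes of phagocytic microglia in developing white matter, drawn up after the values of its leading genes were seen, had 6 lower and 0 higher genes, the sixth being the lysosomal tetraspanin Cd63 at -0.13 (exact p = 0.0363). Since it was built around them, its count is a description only. The other 14 ranged from -0.37 (Lpl, a lipase) to 0.05 (Igf1, a growth factor), with the lysosomal protease Ctsb and the lipid carrier Apoe both at 0.01. In whole tissue, fewer cells of a type and less RNA per cell cannot be told apart.

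The 23 myelin genes were high on Con replicate 19 as well, and their part in the result was not tested. Their mean level was 11.87 there and 10.54 to 11.36 on the other controls. It was also 11.96 on MS2 replicate 4 and 11.98 on MS5 replicate 8, where Gpnmb stood at 6.63 and 6.73, inside the range of the other treated arrays. MS2 replicate 4 was also the array low in hippocampal neuron genes, and these values are given as a description only. Over all arrays the myelin list had 1 higher gene, Aspa, which breaks down N-acetylaspartate in oligodendrocytes (0.28, exact p = 0.0393), and 0 lower genes, with 21 of 23 differences above 0 and a median of 0.15. That median was 0.28 without Con replicate 19 and 0.05 without Con replicate 18. Within slide 1 it was 0.28 with 11 genes at p under 0.05, and within slide 2 it was -0.04 with 0. Aspa had p under 0.05 in 9 of the 15 fits without 1 array, and not without Con replicate 19 (0.28). Mbp, a main protein of compact myelin, differed by -0.01.

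Mertk had the smallest limma p of all probesets with a RefSeq transcript (exact p = 0.000999). It encodes a receptor kinase with which microglia and astrocytes clear dying cells and debris, and it was listed here among genes that glucocorticoids regulate. Its levels were 9.81, 9.85, 10.00, 9.67 and 9.95 in Con, 10.06, 10.11, 10.18, 9.93 and 10.12 in MS2, and 10.31, 10.23, 10.10, 10.19 and 10.25 in MS5. MS2 replicate 5, the dim array, was the only treated array inside the control range. The difference was 0.29 ± 0.06, or 0.23 at MS2 and 0.36 at MS5, and lay between 0.23 and 0.35 with p under 0.05 in each of the 26 alternative analyses. Mertk was named for its small p on these arrays, so this count describes that choice.

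Choroid plexus genes were lower, far more so at MS5. Of the 26 listed, 11 were lower and 0 higher at p under 0.05, where 2.46% of all gene names were lower and 1.71% higher, 25 of the differences were below 0, and the median was -0.69. The study had already reported several of these genes, such as Aqp1, Calml4 and Cldn2, as lower at MS5 on the same arrays. The count of the list is therefore a description only. Its median was -0.24 for MS2 and -1.17 for MS5. All 26 were lower at MS5 than at MS2, 20 of them with p under 0.05. On 24 of the 26 genes MS5 replicates 14 and 9 were the lowest pair of the 15 arrays, and the mean level of the list was 8.81 and 9.56 there against 10.68 to 11.89 on the other 13.

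Among single genes of this tissue, Steap1, a metalloreductase, stood at 10.25, 11.20, 11.06, 10.66 and 10.88 in Con, at 10.51, 10.67, 9.96, 10.66 and 10.16 in MS2, and at 10.24, 8.63, 10.21, 9.57 and 7.97 in MS5. The MS2 arrays lay within or under the range of the controls, and all MS5 arrays lay below the lowest control. Its difference was -0.95 ± 0.32 (exact p = 0.0366), and MS5 minus MS2 was -1.07 (exact p = 0.0476 over 252 assignments). Kcnj13, an inward rectifier potassium channel of the apical membrane, stood on its second probe at 11.35, 12.25, 12.27, 11.53 and 11.65 in Con, at 11.84, 11.82, 10.86, 11.31 and 11.28 in MS2, and at 11.11, 9.60, 11.48, 10.66 and 8.37 in MS5. Of the MS5 arrays only replicate 12 reached into the control range. The differences were -0.98 on this probe (exact p = 0.0666) and -0.81 on the first (exact p = 0.0729). Wdr86 (-0.84, exact p = 0.0363), the anti-ageing hormone gene Kl (-0.78, exact p = 0.0459), the calmodulin-like Calml4 (-0.95, exact p = 0.0839), the sulfatase Sulf1 (-0.71, exact p = 0.107), the clotting factor gene F5 (-0.69, exact p = 0.0946) and the collagen Col8a1 (-0.65, exact p = 0.0459) followed the same order of group means. Folate receptor Folr1 differed by -0.80 on its dimmer probe (exact p = 0.0879) and by -1.19 on the brighter (exact p = 0.0999).

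Of the 11 genes lower in limma, 4 also had an exact p under 0.05. The defining markers of the tissue had the widest spread. Ttr, the thyroxine carrier transthyretin, was at 17.50 to 18.15 on 13 arrays, at 15.93 on MS5 replicate 9 and at 12.84 on MS5 replicate 14, for a difference of -0.81 (exact p = 0.275). The water channel Aqp1 differed by 0.14 at MS2 and -1.48 at MS5. Prlr, the prolactin receptor, was the only listed gene above 0, at 0.06. Without MS2 replicate 4 and MS5 replicates 9 and 14 the median of the list was -0.27 and 5 genes were lower at p under 0.05, Steap1 at -0.56 and Wdr86 at -0.53 among them. Without single arrays the count ran from 2 (Con replicate 16, the highest control) to 18 (MS5 replicate 12), with 3 without Con replicate 17 and 7 without Con replicate 19, MS2 replicate 4, 5 or 7 or MS5 replicate 9. It was 7 with the slide as a block and 5 with the treated arrays as 1 group. Within slide 1 the median was -0.20 with 0 genes at p under 0.05, and within slide 2 it was -1.19 with 5. How much of the result comes from the amount of choroid plexus kept at dissection was not tested.

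Several genes outside the list were low on the same arrays. Trpm3, a cation channel abundant in choroid plexus, differed by -0.91 on its brightest probe (exact p = 0.0896), or -0.24 at MS2 and -1.58 at MS5, and by -0.38 and -0.13 on the others. The beta-defensin Defb11 (-1.09, exact p = 0.0982) and the insulin gene Ins1 (-0.69, exact p = 0.0336) each had their lowest levels on MS5 replicates 9 and 14. Ins1 was at 8.24 to 8.92 in Con, 7.67 to 8.65 in MS2, and 8.08, 6.86, 8.23, 7.61 and 6.84 in MS5. Ap1s2, an adaptor subunit of clathrin coats, differed by -0.59 on a probe that was low on the same arrays (8.94 and 8.73) and on MS2 replicate 4 (8.92), while its brighter probe differed by 0.07, so its probes disagree.

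Ependymal and vascular lists were closer to 0. Of 18 genes of ependyma and motile cilia, 17 differences were below 0 with a median of -0.24. That median was 0.02 within slide 1, -0.53 within slide 2 and -0.10 without MS2 replicate 4 and MS5 replicates 9 and 14, with 1, 8 and 2 genes at p under 0.05 against 3 in all arrays and 7 without MS5 replicate 12. Ccdc39 (-0.18, exact p = 0.002) and Spag16 (-0.24, exact p = 0.0546), both axonemal proteins, were lower in limma, and Spef2, a sperm flagellar protein, was higher (0.52, exact p = 0.025). Spef2 stood at 11.61 to 12.11 in Con, at 11.99, 11.80, 13.35, 11.99 and 12.29 in MS2 and at 12.31, 12.64, 12.18, 12.42 and 12.65 in MS5, so each MS5 array lay above every control. Spag16 had p under 0.05 in 7 of the 15 fits without 1 array, was -0.17 without Con replicate 16 and -0.04 within slide 1, and its other probe differed by -0.17 (exact p = 0.244). Of 21 endothelial and pericyte genes, the cadherin Cdh5 (-0.18, exact p = 0.0533) and the pericyte receptor Pdgfrb (-0.20, exact p = 0.0103) were lower in limma. Cdh5 had p under 0.05 in only 7 of the 15 fits without 1 array, and was -0.14 without Con replicate 18. Meninges and fibroblasts had 1 lower gene, Igfbp2 (-0.36, exact p = 0.0793), of 20. Igfbp2 had p under 0.05 in 9 of the 15 fits without 1 array, and not without Con replicate 16 (-0.28). The median of that list was -0.06, and -0.27 without Con replicate 19. Blood had 0 of 18 genes at p under 0.05 and a median of -0.12, but 6 genes and a median of -0.22 without Con replicate 17.

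**Figure D3:**
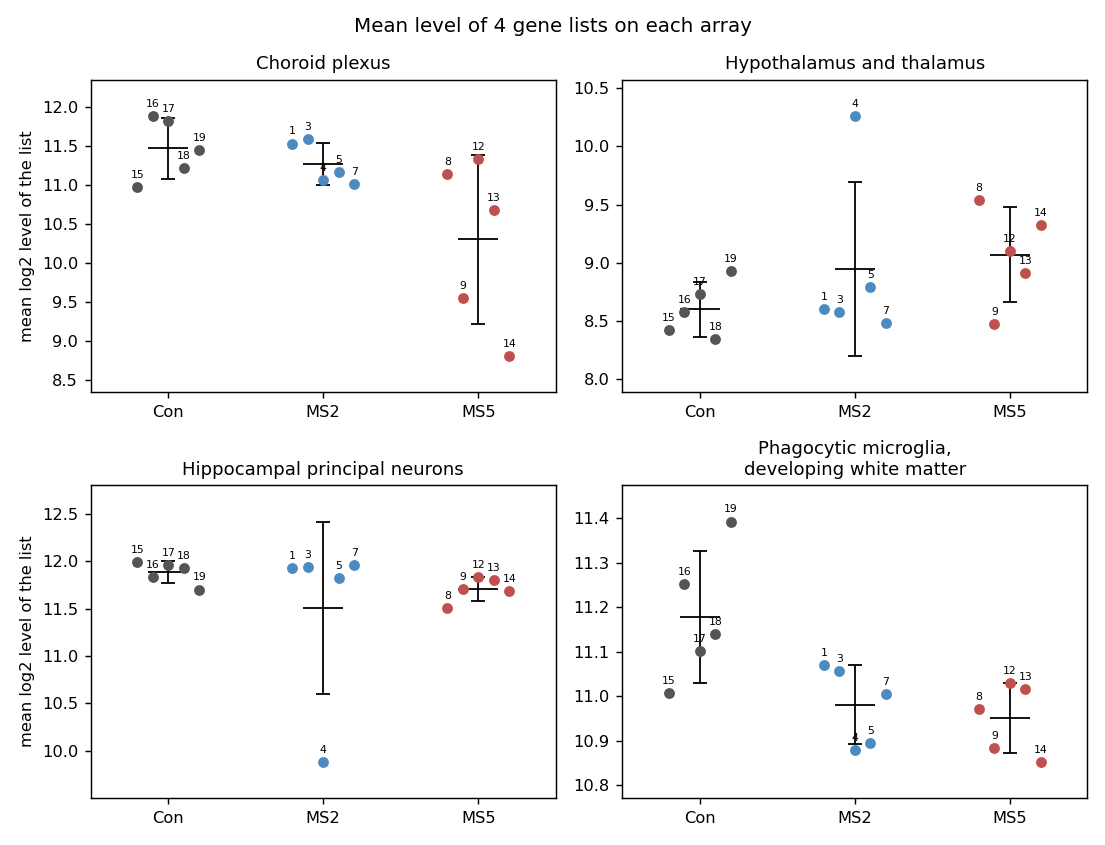
Mean log2 level of the genes of 4 lists on each array (points, with replicate numbers), with the group mean and SD (bars). Choroid plexus genes are low on MS5 replicates 9 and 14, hypothalamic and thalamic genes are high and hippocampal neuron genes low on MS2 replicate 4, and the phagocytic list is highest on Con replicate 19.

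Neuronal region lists moved with single arrays. The 30 genes of hypothalamus and thalamus had 27 differences above 0 and a median of 0.26, with 1 gene, Sim1, at p under 0.05 (its probe was well above background on 1 array only). The median was 0.14 without MS2 replicate 4. At p under 0.05 stood 11 genes within slide 1, 0 within slide 2 and 5 without MS2 replicate 4 and MS5 replicates 9 and 14. The 18 genes of hippocampal principal neurons had a median of -0.33 and 0 genes at p under 0.05, and the median was -0.06 without MS2 replicate 4. Within slide 1 it was -0.10 with 5 genes at p under 0.05, and within slide 2, which held that array, -0.52 with 0. Prox1, the transcription factor of dentate granule cells, differed by -0.06.

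The stress axis was represented by 30 genes that glucocorticoids are known to regulate, and these did not move together. Besides Mertk, Hif3a (0.34, exact p = 0.0459) and Fkbp5 (0.11, exact p = 0.033) were higher, Pdk4 (-0.26, exact p = 0.0283) and Dusp1 (-0.27, exact p = 0.0123) were lower, and the median was -0.01, against -0.00295 over all gene names. Sgk1 and Tsc22d3, which glucocorticoids induce in many tissues, differed by -0.02 (exact p = 0.803) and 0.13 (exact p = 0.112).

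Fkbp5, a chaperone of the glucocorticoid receptor, was at 11.79, 11.83, 11.69, 11.80 and 11.87 in Con, 11.81, 11.77, 11.85, 11.89 and 11.86 in MS2, and 11.89, 12.04, 12.01, 11.99 and 11.95 in MS5. All MS5 arrays lay above all controls, while of the MS2 arrays replicate 5 alone did and the others lay among them. MS5 minus MS2 was 0.14 (exact p = 0.0159). With 75th-percentile scaling Fkbp5 (0.09) no longer had p under 0.05 in limma. Hif3a, a hypoxia-inducible factor subunit that glucocorticoids also raise, overlapped between groups and had p under 0.05 in 7 of the 15 fits without 1 array. Without Con replicate 19 (0.24) it did not, and its dimmer probes differed by 0.06 and 0.02. Pdk4, a kinase that spares glucose, also no longer had p under 0.05 without that array (-0.21).

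Of the 25 hypoxia-responsive genes, 1 was higher and 0 were lower, a share close to the 1.71% and 2.46% of all gene names. Ankrd37, a direct target of hypoxia-inducible factor, was at 9.94, 9.89, 10.01, 9.80 and 10.39 in Con, 10.16, 10.06, 10.59, 10.42 and 10.16 in MS2, and 10.78, 10.36, 10.58, 10.29 and 10.30 in MS5. Con replicate 19 was the only control inside the treated range, and the difference was 0.36 (exact p = 0.013), or 0.46 without that array. Vegfa, the angiogenic growth factor, differed by 0.09, and the median of the list was -0.00228.

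Immediate early genes, which neurons transcribe within minutes of activity, leaned low. Of 21, 18 differences were below 0, with a median of -0.11, but only Btg2 had p under 0.05. Btg2, an antiproliferative gene, was at 9.32, 9.32, 9.55, 9.49 and 9.56 in Con, 9.34, 9.08, 8.75, 9.05 and 9.38 in MS2, and 8.93, 9.20, 9.13, 9.39 and 9.04 in MS5. Most treated arrays lay below every control, and the difference was -0.32 ± 0.10 (exact p = 0.00799). Egr1 (-0.41, exact p = 0.217) and Arc (-0.39, exact p = 0.0989), both read-outs of synaptic activity, had wide spreads, and Fos differed by -0.01. MS2 replicate 4 had the lowest mean of the list, 9.01 against 9.71 to 10.00, and the median without it was -0.09.

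Dusp1, a phosphatase that ends MAP kinase signals, was at 9.49, 9.37, 9.61, 9.61 and 9.76 in Con, 9.37, 9.07, 8.98, 9.36 and 9.42 in MS2, and 9.21, 9.53, 9.25, 9.48 and 9.33 in MS5. The groups overlapped between 9.37 and 9.53. Socs3, the feedback inhibitor of cytokine receptors, was lower, differing by -0.23 ± 0.06 (exact p = 0.003), from 9.24 to 9.56 in Con and from 8.94 to 9.26 in the treated pups, and the antiviral Rsad2 by -0.30 (exact p = 0.0356), the latter with p over 0.05 in limma without Con replicate 16 (-0.24). These were 2 of 20 genes of the interferon and cytokine list, whose median was -0.00243. Atf3, a stress-induced transcription factor, was lower (-0.17, exact p = 0.0113) and was the only gene of 20 in the heat shock list.

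A pair of clock genes was higher. Hlf, a transcription factor of the PAR family, was at 10.93, 10.48, 10.95, 10.54 and 10.68 in Con, 11.34, 10.89, 11.21, 11.05 and 11.27 in MS2, and 11.43, 10.99, 10.83, 11.12 and 10.91 in MS5. The difference was 0.39 ± 0.11 (exact p = 0.00566), 0.41 within slide 1 and 0.45 within slide 2. Bhlhe41, a repressor of the clock, did not overlap between the groups, with 6.82 to 6.98 in Con and 6.99 to 7.33 in the treated pups (0.19, exact p = 0.00167), though a dimmer probe differed by 0.02. They were 2 of 18 clock genes, of which 0 were lower, against 1.71% higher and 2.46% lower of all gene names. Per1, Nr1d1 and Dbp differed by 0.04, 0.12 and 0.24 with p over 0.05. The time of day of killing was not analysed here.

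**Figure D4:**
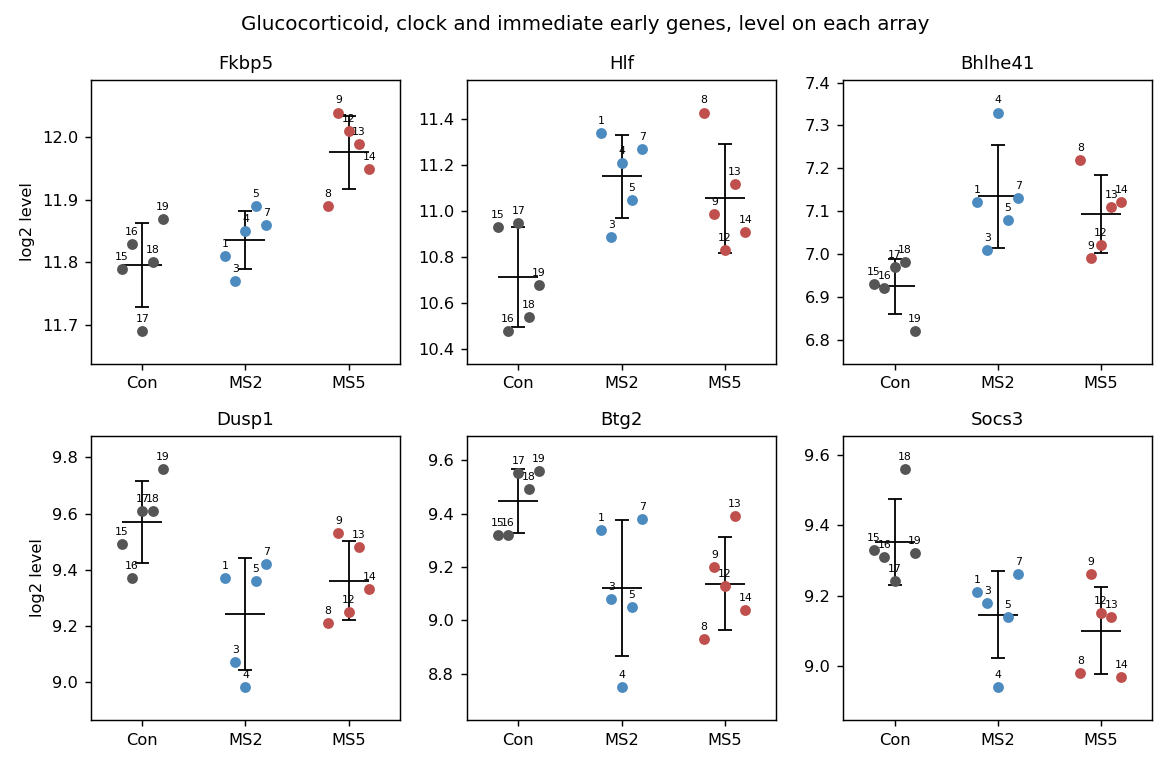
Log2 levels of Fkbp5, Hlf, Bhlhe41, Dusp1, Btg2 and Socs3 on each array (points, with replicate numbers), with the group mean and SD (bars). Bhlhe41 does not overlap between Con and treated arrays, all MS5 arrays and MS2 replicate 5 are above all controls in Fkbp5, and the lower row leans low at both doses.

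Opioid genes had 1 member at p under 0.05, where 1.71% of all gene names were higher and 2.46% lower. Of the 8 receptor and peptide genes, Oprd1, the delta receptor, was that gene, at 6.97, 6.70, 6.89, 6.88 and 6.88 in Con, 7.09, 6.78, 6.98, 7.16 and 7.07 in MS2, and 7.10, 6.99, 6.86, 7.21 and 7.10 in MS5. The groups overlapped and the difference was 0.17 ± 0.07 (exact p = 0.0236), but limma's p was over 0.05 without Con replicate 16. Oprm1, the mu receptor through which morphine acts, has a bright and a dim probe of very unlike level. The bright probe was at 15.85 to 16.30 in Con and 15.92 to 16.48 in the treated pups (0.16, exact p = 0.144). The dim probe was at 6.12 to 6.28 in Con and 6.23 to 6.72 in the treated pups (0.19, exact p = 0.0346). The bright probe stood near the ribosomal protein gene Rps6 (16.38 to 16.48 in Con), and which probe reads the receptor was not tested.

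Oprk1, the kappa receptor, differed by 0.63 (exact p = 0.167), with 9.58 on MS2 replicate 4, 9.44 on MS5 replicate 8 and 7.22 to 8.63 on the others. Penk, the enkephalin precursor, was at 14.40 to 15.58 on 5 arrays, which were Con replicate 19, MS2 replicate 5 and MS5 replicates 8, 12 and 14, and at 11.51 to 12.68 on the other 10. All groups thus held an array with high Penk. Oprl1, the nociceptin receptor, differed by 0.17, its ligand gene Pnoc by 0.08, Pomc, the precursor of beta-endorphin, by 0.02 and Pdyn, the dynorphin precursor, by -0.15. Of 39 genes of opioid receptor signalling (G protein subunits, adenylyl cyclases, RGS proteins, arrestins and kinases), 0 were higher and 0 lower, and the median was 0.05, with 3 past p under 0.05 without Con replicate 15.

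Synaptic, proliferative and housekeeping lists had few genes at p under 0.05, where 1.71% of all gene names were higher and 2.46% lower. Of 23 glutamate receptor genes 1 was higher and 0 were lower, and of 14 GABA receptor genes Gabbr2, a GABA-B receptor subunit, was higher in limma (0.29, exact p = 0.0709). Gabbr2 had p under 0.05 in 6 of the 15 fits without 1 array, not without Con replicate 19 (0.17), and was 0.11 within slide 1. Of 28 cell cycle genes 26 differences were below 0, with a median of -0.11, or -0.03 without Con replicate 19. The spindle checkpoint kinase Bub1b (-0.22, exact p = 0.00433) and the replication helicase subunits Mcm7 (-0.22, exact p = 0.0126) and Mcm2 (-0.16, exact p = 0.0516) were lower in limma. Mcm2 had p under 0.05 in 7 of the 15 fits without 1 array, and not without Con replicate 19 (-0.13). In this list 8 genes were past p under 0.05 without Con replicate 15. Within slide 1 the cell cycle median was 0.01 with 0 genes lower, and within slide 2 it was -0.24 with 12. Astrocytes had Gjb6 higher (0.24, exact p = 0.0576) and Sox9 lower (-0.16, exact p = 0.0396) of 16, and 0 of 16 without Con replicate 19, where they differed by 0.15 and -0.12. Gjb6 had p under 0.05 in 5 of the 15 fits without 1 array and Sox9 in 11. Of 36 respiratory chain genes 0 were past p under 0.05, all lying between -0.08 and 0.08, and of 30 ribosomal protein genes 1 was lower and 0 were higher, with 7 past p under 0.05 without Con replicate 17. Of 24 fasting genes Pdk4 and Igfbp2 were lower, and of 17 interneuron genes 0 were past p under 0.05.

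**Figure D5:**
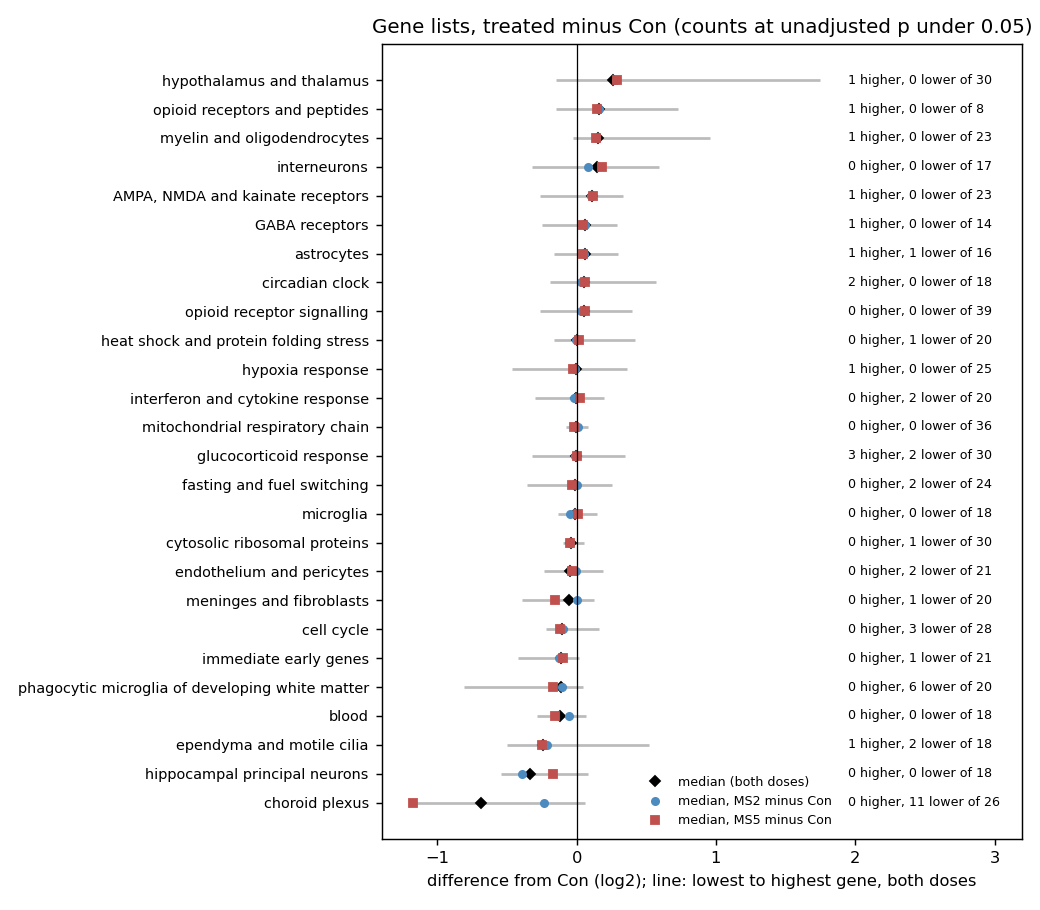
Median difference from Con (log2) of each gene list for both doses together (diamonds), MS2 (circles) and MS5 (squares), with the lowest and highest gene (lines) and the number of genes at unadjusted p under 0.05 at the right. Choroid plexus is the list furthest from 0 and the one whose doses lie furthest apart, and most other medians lie within 0.3 of 0.

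The genes that did not overlap between treated and control arrays had small differences. The number of such probesets is no larger than chance would give. These genes were named for their lack of overlap, so a small exact p beside them largely restates that choice. Of the 16 well above background, 11 carried a gene with a RefSeq transcript, 3 higher and 8 lower. Trim35, a ubiquitin ligase of the TRIM family, was at 8.44, 8.40, 8.25, 8.40 and 8.25 in Con, 8.49, 8.70, 8.51, 8.54 and 8.62 in MS2, and 8.60, 8.56, 8.46, 8.49 and 8.56 in MS5 on its first probe. The difference was 0.21 ± 0.05 (exact p = 0.000333), nearly equal at 0.21 within slide 1 and 0.20 within slide 2. Its second, brighter probe differed by -0.07 (exact p = 0.128), so the probes disagree. Dirc2, a lysosomal transporter now called Slc49a4, was at 10.09 to 10.14 in Con and 10.14 to 10.49 in the treated pups (0.16, exact p = 0.011).

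Lower without overlap, besides Gpnmb, were the metalloprotease Adamts7, with 6.95 to 7.07 in Con and 6.62 to 6.89 in the treated pups (-0.23, exact p = 0.00133), the sphingosine-1-phosphate receptor S1pr2, with 8.20 to 8.35 and 7.95 to 8.20 (-0.18, exact p = 0.00133), and Thumpd3, with 12.72 to 12.77 and 12.39 to 12.71 (-0.16, exact p = 0.003). Ndufab1, an acyl carrier protein of mitochondria (-0.19, exact p = 0.00533), Lbr, a receptor of the nuclear lamina (-0.11, exact p = 0.00133), and Obox1, an oocyte homeobox gene near background (-0.13, exact p = 0.000333), completed them with Sigirr. Sigirr, an inhibitor of interleukin-1 receptors, was separated by a narrow gap and its difference of -0.27 (exact p = 0.114) rested on MS5 replicate 8 at 7.19 against 8.30 to 8.43 on the other treated arrays. Gpnmb, Adamts7, S1pr2, Thumpd3, Trim35 (first probe), Bhlhe41 and Obox1 each had p under 0.05 in all 26 alternatives. Leaving out arrays keeps a lack of overlap, for which these genes were named, so this count describes the choice and adds no separate support.

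Retnla and Pdzd2 were among the 3 probesets higher past 1.5-fold. Retnla, a secreted resistin-like protein of alternatively activated macrophages, was at 7.08, 6.81, 6.65, 6.44 and 7.04 in Con, 7.31, 7.19, 6.62, 8.22 and 6.78 in MS2, and 8.59, 7.47, 11.56, 7.26 and 11.69 in MS5. The level on MS5 replicates 12 and 14 set the difference of 1.47 (exact p = 0.0922, and MS5 minus MS2 exact p = 0.0635), which was 0.42 at MS2 and 2.51 at MS5. Its limma p was under 0.05 in 5 of the 15 fits without 1 array. The study had listed Retnla as higher at MS5 on these arrays, while its qPCR of the same samples did not vary significantly with morphine dose. Pdzd2, a scaffold protein, was at 9.78, 9.32, 9.56, 9.31 and 10.06 in Con, 9.98, 9.84, 11.42, 9.92 and 9.98 in MS2, and 10.81, 9.95, 9.87, 10.29 and 10.10 in MS5.

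Pdzd2 was highest on MS2 replicate 4, the array low in hippocampal neuron genes. The difference was 0.61 (exact p = 0.029), and 0.52 with p under 0.05 without MS2 replicate 4 and MS5 replicates 9 and 14. Without Con replicate 16 its p in limma was over 0.05. The other Pdzd2 probes, which were dim, differed by 0.09 and 0.10. Cables1, a regulator of cyclin-dependent kinases (0.32, exact p = 0.00167), and Ptgr1, a prostaglandin reductase (-0.30, exact p = 0.000999), were chosen after their values were seen. They had p under 0.05 in all 26 alternatives, a count that describes this choice.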

How the data were processed

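Hippocampal RNA of 15 pups was hybridized to 1-colour Agilent 8x60K arrays. The authors deposited the scanner intensity of each spot (files from Agilent Feature Extraction, build mm9 in their headers) and a table of log2 values after normexp background adjustment and quantile normalization. Running these steps on the intensities with an offset of 50 and the first spot of each probe gave the deposited log2 table within 5e-09. The deposited log2 values of 55681 non-control probesets were analysed. Groups were compared in 1 fit of Con, MS2 and MS5 with limma 3.58.1 in R 4.3.3 (lmFit, eBayes), contrast (MS2 + MS5)/2 minus Con, with Benjamini-Hochberg adjustment over all probesets. The threshold of fold over 1.5 with p under 0.05 is the study's. Exact permutation tests were two-sided. P-values measure the spread between pups and take no account of litter, which the labels do not give. A gene in a list was represented by its brightest probeset. Named were the 12 genes highest and 12 lowest past that threshold, the same among probesets without overlap, up to 5 genes of smallest p per list, and the opioid, Fkbp5, Sgk1, Tsc22d3 and sex-linked genes. Members, lists and rules were chosen with earlier results of these data known. The number of arrays limits precision, no array had 8837 of the probesets well above background, and 0 spots were saturated. The fit was tested on simulated data. Alternatives were other sources, offset 0, scaling to the 75th percentile, a filter on dim probes, array weights, the slide as a block, 1 treated group, and leaving out arrays. Leaving out the 3 arrays together, and fits within a slide, were added after seeing the data. The microRNA arrays were not analysed here, and a few genes and 1 probe sequence are not reported here.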

Additional observations from a re-analysis of the deposited data

Results flagged for a closer look

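Of 132 groups of 5 arrays examined for genes with printed levels, 16 had an array set apart from the other 4, where chance gives about 1 in 20. Con replicate 19 was apart high in Gpnmb (8.24 against 6.86 to 7.19), Oprk1 (8.40 against 7.23 to 7.50), Penk (14.85 against 11.53 to 11.96) and, within background, Xist (6.08 against 5.93 to 5.97). MS2 replicate 4 was apart high in Cables1 (11.84 against 11.40 to 11.46) and Pdzd2 (11.42 against 9.84 to 9.98) and low in Itgax (6.30 against 6.59 to 6.67) and Pdk4 (8.78 against 9.28 to 9.48). MS5 replicate 9, labelled male, was apart high in Xist (11.34 against 5.89 to 6.05) and low in the Y-linked Ddx3y (6.24 against 11.09 to 11.31) and Eif2s3y (6.77 against 12.12 to 12.46). MS5 replicate 8 was apart low in Sigirr (7.19 against 8.30 to 8.37). MS5 replicate 12 was apart low in Cables1 (11.49 against 11.72 to 11.76) and high in Thumpd3 (12.67 against 12.54 to 12.57). MS2 replicate 7 was apart high in Gpnmb (6.82 against 6.58 to 6.63) and Con replicate 18 high in Socs3 (9.56 against 9.24 to 9.33).

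Of 44 probesets examined, 9 differed between the doses at an unadjusted p under 0.05 in limma, with adjusted p of 1. MS5 was above MS2 in Retnla by 2.09 (exact p = 0.0635) and in Fkbp5 by 0.14 (exact p = 0.0159), where the exact permutation test over 252 assignments cannot go below 0.00794. MS5 minus MS2 was -1.53 for Defb11, -1.18 and -1.01 for the Kcnj13 probes, -1.09 for Calml4, -1.07 for Steap1, -0.92 for Wdr86 and -0.65 for Ins1.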

How the results depend on the processing

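No paired analysis was possible because the labels give neither litter nor experimental run, although the study kept treated pups with untreated littermates. The adjusted test gave 0 probesets in every alternative. The count past 1.5-fold was 30, 170 with an offset of 0, 404 with 75th-percentile scaling, 18 with treated arrays as 1 group, 13 without the 3 arrays together, 79 within slide 1 and 135 within slide 2. Leaving out single arrays gave 10 (Con replicate 16) to 83 (MS5 replicate 12), with 14 without Con replicate 17, 15 without MS2 replicate 4, 16 without MS5 replicate 14, 52 without MS5 replicate 8 and 80 without Con replicate 15. Probesets without overlap numbered 23, 27 (MS5 replicate 8) to 148 (Con replicate 15) without 1 array, 69 without the 3 arrays, 1400 within slide 1 and 4760 within slide 2, where fewer arrays have to be separated. Of the named probesets 62 had p under 0.05, 45 in the exact permutation test, 36 (Con replicate 16) to 59 without 1 array, 26 within slide 1 and 34 within slide 2. Many were named for their p or their lack of overlap, so that count describes the choice. Of the list genes 40 had p under 0.05, and 24 (Con replicate 16) to 58 (MS5 replicate 12) without 1 array. The doses differed at 18 named probesets, 30 with array weights, 6 (MS5 replicate 9 or 14) to 26 (MS2 replicate 4) without 1 array, 9 without the 3 arrays and 3 within slide 2. Directions turned only in genes without p under 0.05. Without the 3 arrays the difference was 0.00955 for Ddx3y, -0.0327 for Pnoc, 0.0109 for Eif2s3y, 0.049 for Sgk1 and 0.0589 for Kdm5d. Within slide 1 it was -0.00963 for Pnoc, 0.00548 for Pdyn, 0.0601 for Eif2s3y, 0.049 for Kdm5d and 0.0617 for Sgk1, and within slide 2 it was -0.0782 for the brighter Ap1s2 probe and -0.0131 for Pomc. Leaving out single arrays gave -0.0451 to 0.159 for Pnoc, -0.237 to 0.00214 for Pdyn, -0.0216 to 0.0433 for Pomc, -0.699 to 0.0115 for Eif2s3y, -0.0586 to 0.0135 for Sgk1 and -0.0545 to 0.0513 for Kdm5d. The cause of these moves was not tested. Signal over background limits dim genes such as Sim1 and Obox1, and the size of the differences in Gpnmb and Itgax depends on the offset.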
